A study of Homo sapiens with 8 samples.

Results

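A set of 9 genes of nucleotide synthesis and of the replication clamp, out of the 63241 genes listed, was followed through 8 libraries of 2 liver cancer cell lines. They were taken by symbol, as PCLAF, PCNA, TYMS, TK1, RRM1, RRM2, DUT, CDCA7 and UHRF1, and each symbol matched 1 Ensembl gene. The choice was made with their levels in these same libraries in view, so their levels and differences are given below as a description, without a test. All 9 passed the filter on low values, and the lowest value of any of them was 1.37 FPKM (fragments scaled by transcript length and by the size of the library).

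HepG2 and Huh7 are established human lines derived from liver cancers. In each line, mRNA of parental cells (WT, labelled as control) was compared with that of a sorafenib-resistant derivative (SR, labelled as sorafenib-treated), with 2 libraries in each of the 4 groups. Sorafenib is a multikinase inhibitor used in advanced liver cancer, and the SR lines had been selected by exposing cells to increasing drug concentrations. The study names 1 SR line for each parental line. Whether the 2 libraries of an SR group came from 1 selected population is not given in the sources used here. No gene was deleted or introduced in any of the groups, all 8 libraries carried the same batch label, and whether the SR cells were in the drug at harvest is not given in the sources used here.

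To copy its genome a cell has to make deoxynucleotides and load the sliding clamp that holds polymerases on DNA. Ribonucleotide reductase turns ribonucleotides into deoxyribonucleotides, thymidylate synthase and thymidine kinase supply the thymidine nucleotides, and dUTPase keeps uracil out of the new strand. Transcripts of many of these genes are made at the border of G1 and S phase under E2F factors, and they are low in resting hepatocytes. The RNA came from whole cultures, so fewer cells in S phase and less RNA per cell cannot be told apart in any value below.

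The start-site windows of the members are shown because 6 of the 9 held an E2F-type word. The choice did not use sequence, but it took S-phase genes, many of which are made under E2F factors. Members also had more windows per gene than genes at large, so nothing is read from their share against that of all genes. RefSeq windows (GRCh38.p14, from 250 bases before to 50 after a start) were at hand for all 9 members, 18 windows in all. The 4 E2F-type words (TTTCGCGC, TTTGGCGC, TTTCCCGC or TTTGCCGC, on either strand) were searched, and 6 of the 9 members held at least 1, in 7 of 18 windows. Among all genes 3.99% of 27305 held one, and among all windows 3.31% of 35116. Among the pathway genes that are no members, 28 of 111 held one. Each line below gives 30 bases read 5′ to 3′ on the strand of the gene, with the E2F-type word in capitals, or the CCAAT word in the members that had none.
PCLAF: ccttggagcgcGCGGGAAAgagaccaatat
PCNA: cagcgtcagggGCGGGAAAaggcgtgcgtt
CDCA7: tgtgtcccaacGCGGGAAAgacagcccgag
TYMS: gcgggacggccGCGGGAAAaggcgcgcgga
DUT: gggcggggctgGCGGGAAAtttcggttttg
UHRF1: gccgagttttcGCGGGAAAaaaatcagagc
RRM2: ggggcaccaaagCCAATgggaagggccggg
TK1: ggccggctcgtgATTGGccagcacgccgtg
RRM1: gcatgtccatatCCAATggggcccatggga

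In all 6 the word read GCGGGAAA, the reverse complement of TTTCCCGC. Counted from the start site of its window, its first base lay at -45 in PCLAF (chr15:64381468-64381497, minus strand), at -59 in PCNA (chr20:5126663-5126692, minus strand) and at -65 in CDCA7 (chr2:173354796-173354825, plus strand). It lay at -39 in TYMS (chr18:657603-657632), at -42 in DUT (chr15:48332144-48332173) and at -14 in UHRF1 (chr19:4909476-4909505), all on the plus strand. DUT and UHRF1 each held a further E2F-type word, in DUT at -27 and in UHRF1 at -160 of a separate window. By GENCODE release 29 the words of PCNA and CDCA7 lay upstream of every annotated exon. Those printed for PCLAF, TYMS, DUT and UHRF1 lay inside the exon of a transcript that starts further upstream. RRM1 (chr11:4094645-4094674), RRM2 (chr2:10122661-10122690) and TK1 (chr17:78187081-78187110, minus strand) held no E2F-type word in these windows, which says only that these letters are not there. CCAAT, or ATTGG on the other strand, was found in 6 of 9 members against 39.7% of all genes and 51 of 111 pathway genes. It was found 4 times in 1 window of PCLAF, and 3 times in 1 window each of PCNA and RRM2. PCLAF, PCNA and UHRF1 carried both words. For PCNA, 156 bases upstream of its annotated exons (chr20:5126627-5126782, minus strand) are given with both words in capitals.
PCNA: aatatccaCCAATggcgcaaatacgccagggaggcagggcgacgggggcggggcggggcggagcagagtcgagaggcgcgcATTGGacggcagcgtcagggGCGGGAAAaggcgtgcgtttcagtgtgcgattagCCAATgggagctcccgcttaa
TTTGAA was found in 2 of 9 members (18.2% of all genes, 19 of 111 pathway genes). The GC word GGGCGG was found in 8 of 9 (48.3% of all genes, 91 of 111 pathway genes).

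Before the levels, 1 property of the libraries has to be given, since several results rest on it. Over the 15173 genes tested, 5 libraries (HepG2 WT 1, WT 2 and SR 1, and Huh7 WT 2 and SR 2) correlated with one another at r = 0.914 to 0.977. Huh7 WT 1 and SR 1 correlated with each other at 0.965 but with those 5 at only 0.731 to 0.783, and HepG2 SR 2 stood apart from both (0.775 to 0.819 and 0.815 to 0.846). Replicate 2 of both Huh7 groups was therefore closer to HepG2 libraries than to replicate 1 of its own label, and HepG2 SR 2 correlated with no other library above 0.846. ALB, the serum albumin made by hepatocytes, was 11.98 and 42.3 FPKM in Huh7 WT 1 and SR 1 and 604 to 4713 FPKM in the other 6. KRT19, a keratin of bile duct cells, was 0.179 to 2.37 FPKM in Huh7 WT 1, Huh7 SR 1 and HepG2 SR 2 and 155 to 760 FPKM in the like 5. All 14 hepatocyte markers passed the filter, and their summed level was 7879 to 10035 FPKM in the 4 HepG2 libraries, 2275 to 3277 FPKM in Huh7 WT 1, WT 2 and SR 1 and 8767 FPKM in Huh7 SR 2. Of 13 markers of other cell types 5 passed (KRT19, EPCAM, KRT7, PECAM1 and CD14), and the summed level of all 13 was 366 to 858 FPKM in HepG2 WT, 27.1 to 406 FPKM in HepG2 SR, 15.04 to 294 FPKM in Huh7 WT and 15.6 to 338 FPKM in Huh7 SR. In HepG2 SR 2, with the sum of 27.1 FPKM, EPCAM was 11.04, the collagen COL1A2 8.28 and the monocyte marker CD14 6.27 FPKM. COL1A2 was at most 0.519 FPKM in the other 7 libraries, and CD14 was 0.058 to 5.76 FPKM. COL1A1 was at most 1.67 FPKM, KRT7 at most 4.75 FPKM and the endothelial marker PECAM1 0.517 to 4.28 FPKM, while DCN, LUM, VWF, CDH5, PTPRC and CD3E were at most 0.228 FPKM in every library. Their part, and that of the library sets, in the results was not tested, and the difference of each member is also given within the 5 like libraries (3 WT, 2 SR) and within the Huh7 replicate 1 pair. The cell line of some libraries is in doubt from these correlations. The labels were kept as given, so HepG2 and Huh7 below mean the libraries so labelled.

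Ribonucleotide reductase is built of a large catalytic subunit, RRM1, and a small radical-bearing subunit, RRM2, whose amount limits the enzyme in cycling cells. RRM2 (ENSG00000171848, chromosome 2, 10120698 to 10131419) was higher in SR than in WT cells of both lines. In HepG2 it was 18.7 and 29.5 FPKM in WT 1 and 2 and 48.0 and 48.6 FPKM in SR 1 and 2. The Huh7 values were 21.1 and 8.47 FPKM in WT and 54.2 and 30.7 FPKM in SR. The lowest of the 4 SR libraries, Huh7 SR 2, thus lay just above the highest of the 4 WT libraries, HepG2 WT 2. On the log2(FPKM + 1) scale, which understates changes of low genes, the difference was 1.01 (SE 0.51) in HepG2 and 1.53 (SE 0.51) in Huh7. It was 1.14 within the like 5 libraries and 1.32 within the Huh7 replicate 1 pair.

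RRM1 (ENSG00000167325, chromosome 11, 4094707 to 4138876) behaved otherwise. It was 11.6 and 24.5 FPKM in HepG2 WT and 22.9 and 30.2 FPKM in HepG2 SR. Huh7 WT held 29.8 and 10.3 FPKM and Huh7 SR 51.8 and 14.7 FPKM. WT and SR overlapped in both lines. Among the Huh7 libraries, WT 1 was closest to SR 1 (r = 0.965) and WT 2 to SR 2 (r = 0.914). Huh7 SR 2 was closer still to HepG2 SR 1 (r = 0.977), so expression does not pair it with Huh7 WT 2. RRM1 was 1.74 times as high in Huh7 SR 1 as in WT 1, and 1.43 times as high in SR 2 as in WT 2. The difference was 0.61 (SE 0.74) in HepG2 and 0.63 (SE 0.74) in Huh7, and the latter became -0.25 without Huh7 SR 1 and 1.501 without Huh7 SR 2. The SR minus WT difference was 0.33 within the like 5 libraries, with overlap, and 0.78 within the Huh7 replicate 1 pair. The RRM2 to RRM1 ratio of FPKM was 1.62 and 1.204 in HepG2 WT and 2.10 and 1.61 in HepG2 SR, which overlap. In Huh7 it was 0.707 and 0.822 in WT and 1.05 and 2.09 in SR, which do not.

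RRM2B encodes the p53-inducible small subunit that serves resting cells. It was 31.9 and 11.96 FPKM in HepG2 WT, 12.4 and 5.14 FPKM in HepG2 SR, 11.9 and 33.1 FPKM in Huh7 WT and 10.5 and 13.0 FPKM in Huh7 SR. WT and SR overlapped in each line, and the mean difference over both lines, -0.96 (SE 0.48), did not pass the threshold (limma, unadjusted p = 0.0879). It was -0.84 within the like 5 libraries and -0.16 within the Huh7 replicate 1 pair. Within a library the RRM2B to RRM2 ratio spanned 0.106 in HepG2 SR 2 to 3.90 in Huh7 WT 2, and the 4 SR ratios (0.106 to 0.422) overlapped the 4 WT ratios (0.405 to 3.90) only at HepG2 WT 2.

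TYMS (ENSG00000176890, chromosome 18, 657604 to 673578) encodes thymidylate synthase, the target of fluorouracil, which methylates dUMP to dTMP. It was 49.5 and 44.1 FPKM in HepG2 WT and 62.8 and 65.4 FPKM in HepG2 SR. In Huh7 it was 28.7 and 26.4 FPKM in WT and 82.9 and 35.5 FPKM in SR. The SR libraries lay above the WT libraries within each line but not across lines. The difference was 0.45 (SE 0.43) in HepG2 and 0.95 (SE 0.43) in Huh7, where it was 0.35 without Huh7 SR 1 and 1.55 without Huh7 SR 2. Within the like 5 libraries it was 0.28, with overlap, and in the Huh7 replicate 1 pair 1.496. TYMS overlaps ENOSF1 (13.3 to 27.1 FPKM) and TYMSOS (0.762 to 20.5 FPKM) on the opposite strand, and since use of strand in counting is not given in the sources used here, reads of the shared stretch cannot be assigned.

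TK1 (ENSG00000167900, chromosome 17, 78174075 to 78187233), the cytosolic thymidine kinase of the salvage route, was higher in SR within both lines. It was 23.2 and 38.7 FPKM in HepG2 WT and 70.4 and 54.2 FPKM in HepG2 SR. The Huh7 values were 12.9 and 6.06 FPKM in WT and 37.7 and 43.6 FPKM in SR. Only HepG2 WT 2 and Huh7 SR 1 kept the 4 SR libraries from lying above all 4 WT libraries. The difference was 1.02 (SE 0.45) in HepG2 and 2.07 (SE 0.45) in Huh7, and 1.58 and 1.48 within the like libraries and the Huh7 replicate 1 pair. TK2, the mitochondrial thymidine kinase, differed by 0.14 (SE 0.41) in HepG2 and by -0.58 (SE 0.41) in Huh7, neither past the threshold.

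DUT (ENSG00000128951, chromosome 15, 48331011 to 48343373) encodes dUTPase, which also yields the dUMP that TYMS uses. It was 10.1 and 21.9 FPKM in HepG2 WT and 25.3 and 18.6 FPKM in HepG2 SR. Huh7 WT held 22.2 and 12.6 FPKM and Huh7 SR 34.4 and 18.8 FPKM. The groups overlapped in both lines, and the differences of 0.51 (SE 0.52) and 0.57 (SE 0.52) were about as large as their errors. Without HepG2 WT 1 the HepG2 difference was -0.01. The like 5 libraries gave 0.59, with overlap, and the Huh7 replicate 1 pair 0.61.

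PCNA (ENSG00000132646, chromosome 20, 5114953 to 5126626), the sliding clamp itself, had the highest FPKM of the 9 members in all 8 libraries. In HepG2 it was 134 and 205 FPKM in WT and 257 and 168 FPKM in SR, which overlap. In Huh7 it was 36.3 and 70.9 FPKM in WT and 96.3 and 215 FPKM in SR, which do not. The difference was 0.33 (SE 0.54) in HepG2, or 0.02 without HepG2 WT 1, and 1.48 (SE 0.54) in Huh7, or 0.91 without Huh7 SR 2 and 2.06 without Huh7 SR 1. Within the like 5 libraries both SR values lay above the 3 WT values, by 0.90 in mean log2 level, and the Huh7 replicate 1 pair differed by 1.38.

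PCLAF (ENSG00000166803, chromosome 15, 64364311 to 64387687) encodes a small disordered protein that sits inside the PCNA ring and is removed at the end of S phase. It showed the largest SR minus WT difference of the 9 members in both lines. PCLAF was 8.67 and 12.5 FPKM in HepG2 WT against 39.8 and 38.2 FPKM in HepG2 SR. The Huh7 values were 9.31 and 4.61 FPKM in WT and 51.2 and 30.5 FPKM in SR. All 4 SR libraries lay above all 4 WT libraries, the nearest values being 12.5 and 30.5 FPKM. The mean was 10.6 ± 2.73 FPKM (SD, n = 2) in HepG2 WT and 39.0 ± 1.08 in HepG2 SR, and 6.96 ± 3.32 in Huh7 WT and 40.9 ± 14.7 in Huh7 SR, so the lines overlapped within WT and within SR. The difference was 1.81 (SE 0.44) in HepG2 and 2.41 (SE 0.44) in Huh7, and leaving out any 1 library kept it between 1.56 and 2.05 and between 1.98 and 2.85. Within the like 5 libraries it was 1.99 and within the Huh7 replicate 1 pair 2.34.

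Relative to PCNA transcript, PCLAF transcript was separated between groups in HepG2 and not in Huh7. The PCLAF to PCNA ratio of FPKM was 0.0648 and 0.0611 in HepG2 WT and 0.155 and 0.228 in HepG2 SR. In Huh7 it was 0.256 and 0.0650 in WT and 0.532 and 0.142 in SR, where the groups overlapped. Both Huh7 ratios of replicate 1 were higher than those of replicate 2, in WT as in SR.

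CDCA7 and UHRF1 act with the clamp at newly copied DNA: UHRF1 reads hemimethylated CpG sites and brings in DNMT1, and CDCA7 recruits the remodeler HELLS. CDCA7 (ENSG00000144354, chromosome 2, 173354820 to 173368997) had the smallest error of the 9 members. It was 6.65 and 8.52 FPKM in HepG2 WT and 19.4 and 23.6 FPKM in HepG2 SR. Huh7 WT held 8.71 and 6.82 FPKM and Huh7 SR 17.1 and 21.8 FPKM. No SR library overlapped any WT library, and the difference was 1.39 (SE 0.34) in HepG2 and 1.22 (SE 0.34) in Huh7. Leaving out any 1 library kept it between 1.24 and 1.55 and between 1.05 and 1.39. Within the like 5 libraries it was 1.38 and within the Huh7 replicate 1 pair 0.90.

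UHRF1 (ENSG00000276043, chromosome 19, 4903080 to 4962154) had the largest error of the 9. It was 6.85 and 18.4 FPKM in HepG2 WT and 21.1 and 9.91 FPKM in HepG2 SR, which overlap. In Huh7 it was 10.5 and 1.37 FPKM in WT and 14.5 and 11.5 FPKM in SR. The HepG2 difference of 0.33 (SE 0.82) became -0.32 without HepG2 WT 1 and 0.98 without HepG2 WT 2. The Huh7 difference of 1.42 (SE 0.82) became 0.28 without Huh7 WT 2 and 2.55 without Huh7 WT 1. The SR minus WT difference was 1.22 within the like 5 libraries, with overlap, and 0.44 within the Huh7 replicate 1 pair. Its paralog UHRF2 differed by -0.02 (SE 0.41) and -0.17 (SE 0.41).

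**Figure D1:**
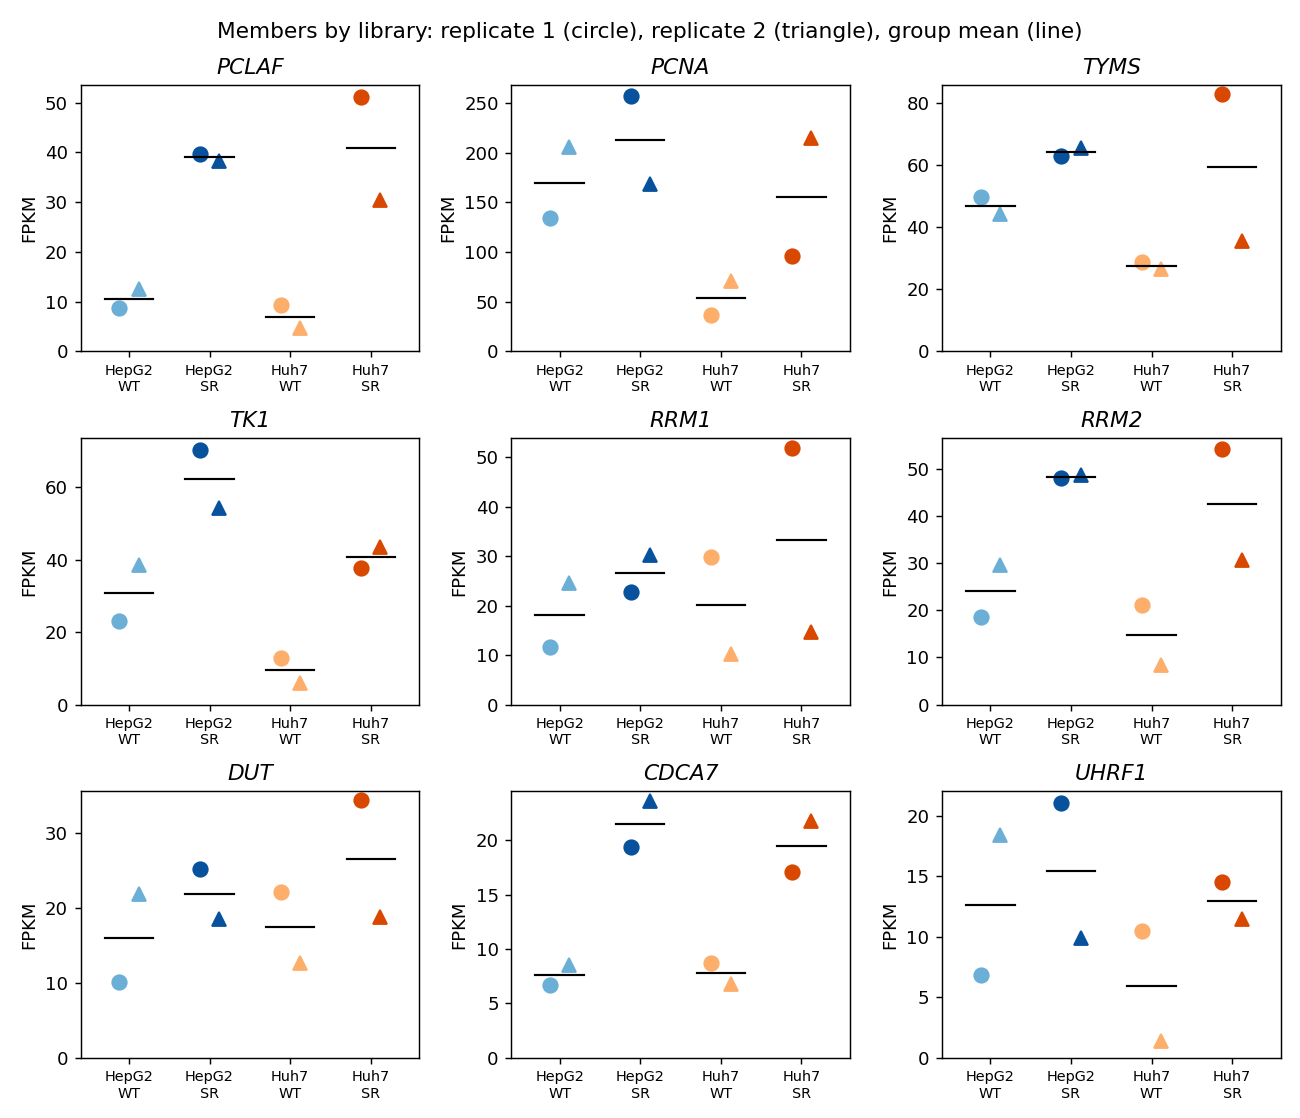
Level of each member (FPKM, linear axis from 0) in the 8 libraries by group, with circles for replicate 1, triangles for replicate 2 and a line at the mean of the 2. PCLAF, CDCA7 and RRM2 show no SR library below a WT library, whereas DUT and RRM1 overlap in both lines.

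Over the members, SR libraries lay above WT libraries in HepG2 for 5 of 9 (PCLAF, CDCA7, TYMS, TK1, RRM2), where 18.1% of all genes tested did so and 20.1% lay below. In Huh7 they did so for 7 of 9, all but RRM1 and DUT, where 9.06% of all genes did and 12.9% lay below. Across both lines, 4 SR against 4 WT libraries, PCLAF, CDCA7 and RRM2 were separated (3 of 9), where 1.52% of all genes were higher in SR in this way and 2.17% lower. Within the like 5 libraries PCLAF, PCNA, TK1, RRM2 and CDCA7 were separated, where 9.27% of all genes were higher and 13.9% lower. The members were chosen on these libraries, so nothing is read from these counts against those shares. The median SR minus WT difference of the 9 was 0.61 in HepG2, 1.42 in Huh7 and 0.90 in the mean of both, against -0.03, -0.06 and -0.05 over all genes.

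**Figure D2:**
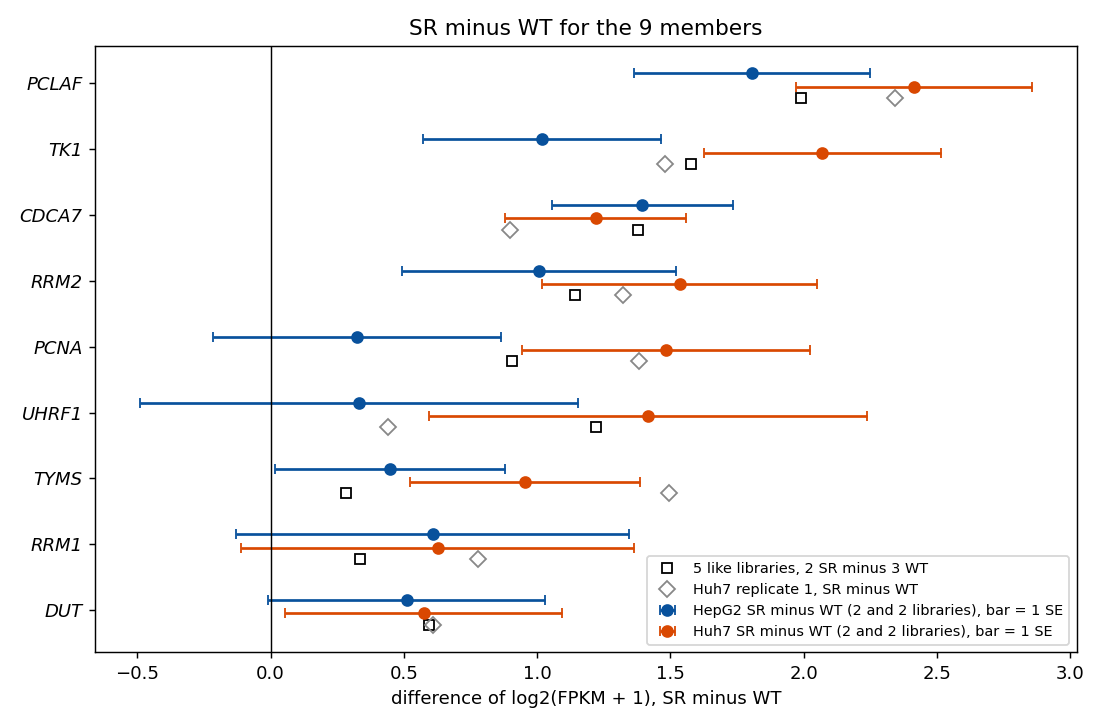
SR minus WT difference of each member on the log2(FPKM + 1) scale, with filled points and bars for the within-line difference and 1 SE, open squares for the 5 like libraries and open diamonds for the Huh7 replicate 1 pair. All points lie above 0, from 0.28 for TYMS in the like libraries to 2.41 for PCLAF in Huh7, and the bars of PCNA, UHRF1, RRM1 and DUT in HepG2 and of RRM1 in Huh7 cross 0.

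The Huh7 difference exceeded the HepG2 difference in 8 of the 9 members, by as much as 1.16 for PCNA, and CDCA7 was the exception at -0.18. These differences between lines are a description too. By sign alone, the difference was higher in Huh7 for 47.6% of all genes tested. Nothing is read from the count of members against that share. Of all 15173 genes, 0 passed an adjusted p of 0.05 for the difference between lines in limma, and 92 (0.606%) passed the unadjusted thresholds, 56 (0.369%) with the higher difference in Huh7 and 36 (0.237%) with the lower. HepG2 and Huh7 libraries did not form separate sets, and the part of this in the difference between lines was not tested.

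The members did not form a single profile over the 8 libraries. Correlations of log2(FPKM + 1) over these libraries, which share the SR and WT grouping and the library sets, are given as a description. PCLAF went with RRM2 (r = 0.946) and with CDCA7 (r = 0.925), TK1 with RRM2 (r = 0.909) and RRM1 with DUT (r = 0.880). PCNA stood apart, with r = -0.104 to RRM1 and 0.058 to DUT, and its correlation with the mean of the other 8 was 0.472, the lowest of the 9. RRM2 had the highest, 0.988, followed by PCLAF at 0.942 and TK1 at 0.901.

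Averaged over the 9 members after each was standardised over the libraries, the level was lowest in Huh7 WT 2 (-1.47), followed by HepG2 WT 1 (-0.66) and Huh7 WT 1 (-0.54). HepG2 WT 2 (0.15) lay close to Huh7 SR 2 (0.21), and the other 3 SR libraries lay at 0.62 to 0.88. A list of 12 genes of G2 and M phase was lowest in the same pair of libraries, at -1.79 in Huh7 WT 2 and -1.15 in HepG2 WT 1. MKI67, the proliferation marker Ki-67, was 4.09 and 11.4 FPKM in HepG2 WT, 14.8 and 16.4 FPKM in HepG2 SR, 15.5 and 3.07 FPKM in Huh7 WT and 25.6 and 10.8 FPKM in Huh7 SR. A list of 10 reference genes also ran from -0.48 in Huh7 WT 2 to 0.68 in Huh7 SR 1, with a median SR minus WT difference of 0.00 in HepG2 and 0.45 in Huh7, 0 of them called. The part of either list in the members' differences was not tested.

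**Figure D3:**
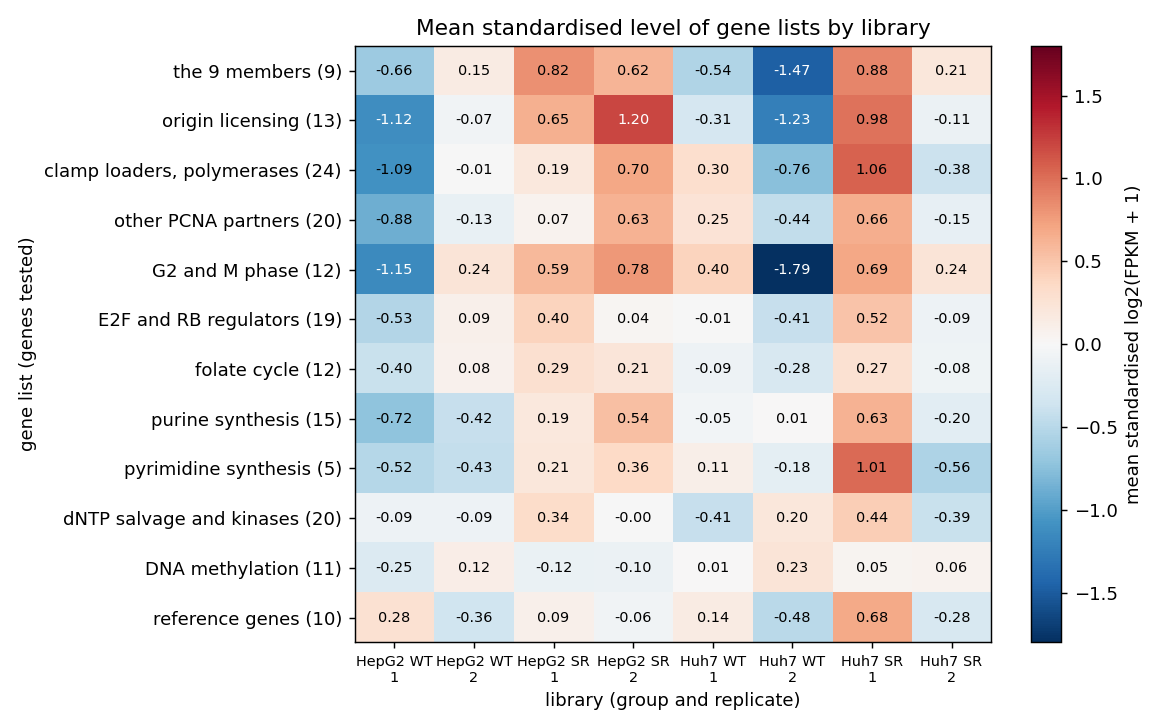
Mean of log2(FPKM + 1), standardised per gene over the 8 libraries, for the 9 members and 11 other gene lists (rows, with the number of genes tested) in each library (columns), with red above and blue below the mean of a gene. The members run from -1.47 in Huh7 WT 2 to 0.88 in Huh7 SR 1, while the DNA methylation list stays within -0.25 and 0.23.

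The genes most like the members were sought among 9080 genes with a mean of at least 5 FPKM, by the correlation of log2(FPKM + 1) with the mean of the members over the 8 libraries. Among the 10 highest were CDT1 (r = 0.987), PKMYT1 (0.971), TONSL (0.970), CENPM (0.966), RCC1 (0.960), TUBG1 (0.959), NME4 (0.954), DBI (0.953) and ASF1B (0.949). CDT1, the licensing factor destroyed on PCNA-bound DNA in S phase, was 2.10 to 9.04 FPKM in WT and 10.9 to 16.2 FPKM in SR libraries.

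The other genes of the pathway were described from 8 lists of 127 genes that are no members, of which 126 passed the filter. A gene was called at an unadjusted limma p under 0.05 with a log2 difference of at least 0.5 or under -0.5, the thresholds of the study. In HepG2, 11 of 126 were called higher and 0 lower, where 0.877% of all genes were called higher and 1.27% lower, 2.14% in all. In Huh7, 3 were called higher and 0 lower (all genes 0.942% and 0.923%, 1.87% in all). In the mean of both lines 16 were called higher and 0 lower (all genes 1.9% and 2.03%, 3.93% in all). The lists were chosen with earlier results of these data known, so nothing is read from their counts against those shares. No gene, in the lists or outside, passed an adjusted p of 0.05 in limma, against 325, 283 and 597 genes at an unadjusted p under 0.05 in HepG2, Huh7 and the mean. Each of these counts was below a share of 0.05 of the 15173 genes tested. That share is what an unadjusted p under 0.05 gives on average where no gene differs. The median difference of the 126 was 0.43, 0.22 and 0.31, against the all-gene medians near 0 given above.

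With 1 library left out, some pathway genes were called lower, and the counts given here hold both directions. The pathway count in the mean of both lines rested on single libraries. It was 4 without HepG2 WT 1, 6 without HepG2 SR 2, 7 without Huh7 SR 1 and 10 without Huh7 WT 2, and it was 29 without Huh7 WT 1. Within the 5 like libraries it was 17, 16 higher and 1 lower, and of the genes named below PAICS, RFC4, ESCO2 and UNG lost the call there. The HepG2 count was 2 without HepG2 WT 1 or without HepG2 SR 2 and 19 without HepG2 SR 1. The Huh7 count was 1 without Huh7 WT 2, 5 without HepG2 WT 1, 7 without Huh7 SR 2 and 14 without Huh7 WT 1. Of 28 calls of pathway genes chosen by the naming rule, 22 were lost when at least 1 library was left out, 19 of them without HepG2 WT 1, 17 without HepG2 SR 2, 14 without Huh7 SR 1, 14 without Huh7 WT 2, 8 without Huh7 SR 2, 5 without HepG2 WT 2, 4 without HepG2 SR 1 and 4 without Huh7 WT 1. Among the 6 that held in each of the 8 cases were DCK and CDCA7L in HepG2 and in the mean, and CDT1 in the mean.

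Among 20 genes of deoxynucleotide salvage and phosphorylation, 1 was called. DCK, deoxycytidine kinase, was 3.51 and 3.16 FPKM in HepG2 WT, 13.7 and 10.6 FPKM in HepG2 SR, 5.79 and 10.6 FPKM in Huh7 WT and 21.0 and 11.9 FPKM in Huh7 SR. The SR libraries lay just above the WT libraries over both lines, and the mean difference was 1.26 (SE 0.31, unadjusted p = 0.00488). Of the 5 genes of pyrimidine synthesis 0 were called at the unadjusted threshold, and the most abundant, CTPS1 (CTP synthase) and CAD (the enzyme of the first steps), differed by 0.39 (SE 0.54) and -0.12 (SE 0.29) in the mean. Of 15 purine genes PAICS was called in the mean, 0.66 (SE 0.23, unadjusted p = 0.025), and IMPDH2, which leads to guanine nucleotides, in HepG2, 1.38 (SE 0.56, unadjusted p = 0.0445). IMPDH2 was 0.84 without HepG2 SR 2.

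Of the 12 folate genes, SHMT1, which charges the folate that TYMS consumes, was called in the mean, at 0.75 (SE 0.25, unadjusted p = 0.0191), and in Huh7, at 1.08 (SE 0.35, unadjusted p = 0.0175). It was 7.18 and 7.71 FPKM in HepG2 WT, 12.5 and 8.43 FPKM in HepG2 SR, 4.93 and 3.79 FPKM in Huh7 WT and 10.6 and 9.98 FPKM in Huh7 SR. The 4 SR libraries lay above the 4 WT libraries. The call in the mean was lost without HepG2 WT 1, HepG2 WT 2, HepG2 SR 1 or Huh7 WT 2, and that in Huh7 without Huh7 WT 2, Huh7 SR 1 or Huh7 SR 2.

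Of 24 clamp loader, primase and polymerase genes 4 were called in the mean. Those named were PRIM1, the primase subunit, at 1.25 (SE 0.44, unadjusted p = 0.0257), CHTF18, of the alternative clamp loader, at 1.19 (SE 0.41, unadjusted p = 0.0235), and RFC4, of the main clamp loader, at 0.91 (SE 0.34, unadjusted p = 0.034). FEN1, the flap nuclease that works on PCNA, was called in HepG2 at 1.998 (SE 0.82, unadjusted p = 0.0467), where it was 7.002 and 21.6 FPKM in WT and 33.1 and 83.4 FPKM in SR, and its difference was 1.25 without HepG2 WT 1. In Huh7 FEN1 was 30.04 and 14.97 FPKM in WT and 62.9 and 17.0 FPKM in SR, which overlap.

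Of 20 further genes whose proteins act with PCNA, 4 were called in the mean: CDT1 at 1.40 (SE 0.35, unadjusted p = 0.00561), CHAF1A, of the histone chaperone on the clamp, at 1.21 (SE 0.41, unadjusted p = 0.0229), ESCO2, the cohesin acetyltransferase, at 0.96 (SE 0.39, unadjusted p = 0.0453), and UNG, which removes uracil from DNA, at 0.95 (SE 0.33, unadjusted p = 0.0227). UNG was 0.52 within the like 5 libraries. CDKN1A, which encodes the PCNA-binding inhibitor p21, was chosen after its values were seen. It was 452 and 175 FPKM in HepG2 WT, 138 and 11.3 FPKM in HepG2 SR, 3.91 and 163 FPKM in Huh7 WT and 1.96 and 92.2 FPKM in Huh7 SR. Its low values fell in the 3 libraries that had low KRT19, in WT as in SR. USP1, the deubiquitinase of PCNA, also chosen after its values were seen, was the 1 pathway gene called for a difference between lines, at -1.36 (SE 0.56, unadjusted p = 0.0457, adjusted p = 0.9998 in limma).

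Of 11 genes of DNA methylation 2 were called in the mean, HELLS at 1.24 (SE 0.41, unadjusted p = 0.0206) and CDCA7L, the paralog of CDCA7, at 1.12 (SE 0.33, unadjusted p = 0.0118). CDCA7L was 2.10 and 2.40 FPKM in HepG2 WT, 6.39 and 14.8 FPKM in HepG2 SR, 3.16 and 5.10 FPKM in Huh7 WT and 5.57 and 6.78 FPKM in Huh7 SR. HELLS was 4.39 to 7.64 FPKM in the 4 WT libraries and 8.61 to 33.6 FPKM in the 4 SR libraries, and its mean difference was 0.83 without HepG2 SR 2. The median of this list was -0.12, below that of all genes. Of 19 E2F and RB regulators 2 were called in the mean, FOXM1 at 1.24 (SE 0.45, unadjusted p = 0.029) and LIN9 at 0.98 (SE 0.41, unadjusted p = 0.0475), and both overlapped between SR and WT in Huh7.

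**Figure D4:**
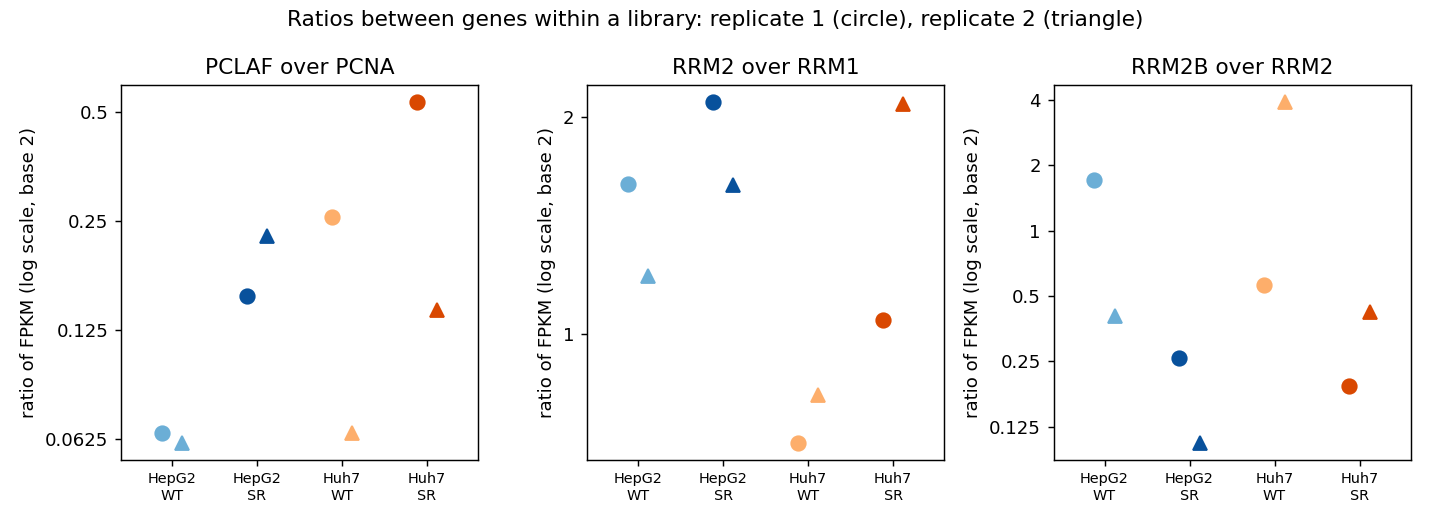
Ratios of FPKM between genes within each library by group (log scale, base 2), with circles for replicate 1 and triangles for replicate 2. PCLAF over PCNA is 0.0648 and 0.0611 in HepG2 WT against 0.155 and 0.228 in HepG2 SR, RRM2 over RRM1 is separated in Huh7 only, and RRM2B over RRM2 is highest in Huh7 WT 2 at 3.90.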

How the data were processed

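mRNA of 8 samples was sequenced from poly(A)-selected, Illumina NEBNext libraries. The authors deposited 1 table of FPKM per library, normalized by fragments and transcript length. The submitters' processing notes name fastp 0.20.0 and the build GRCh38. The aligner, counter, annotation and use of strand are not given in the sources used here. Multiplied by transcript length, 4.04% to 9.75% of low values came within 0.02 of whole reads and chance alone gives 4.0%. Reads could not be recovered this way, so the depth is unknown and no counting intervals are given. Sums of FPKM were 384792 to 429111 per library, and 27188 to 38276 genes were above 0. The highest of these counts was HepG2 WT 2 alone, and the next was 29071 in Huh7 SR 2. At 1 FPKM or more the counts were 12829 to 13386 genes.

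Symbols were attached to 42338 of 63241 Ensembl identifiers, and positions came from GENCODE release 29. The 15173 genes with at least 1 FPKM in at least 2 libraries were fitted as log2(FPKM + 1) with limma 3.58.1 (trend) in R 4.3.3, as 4 group means over all 8 libraries with 4 residual degrees of freedom. FPKM are not counts, so the count test named in the study's methods was not used. Adjustment was by Benjamini-Hochberg over all genes tested. The fit was run on simulated data with known changes and independent noise, with the spread of the HepG2 WT libraries. That setting leaves out the difference between library sets, so nothing is read from it on the calls here. The other tables came from pandas 2.3.3 and NumPy 2.4.6 under Python 3.11.15, and the plots from matplotlib 3.10.9.

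Members and lists were chosen with earlier results of these data known. All members were named. From each list up to 4 called genes were named, ordered by the mean difference, or the 2 most abundant where none was called, together with 4 paralogs of members. A gene that met this rule is not reported here. Groups came from sample titles, and were kept where the libraries of a line did not resemble each other. The labels do not say that replicates were separate cultures, so p-values measure the spread between these samples, which may be technical. In Huh7 WT, Huh7 SR and HepG2 SR the 2 libraries fell in different sets (r = 0.754, 0.760 and 0.819). The spread there also holds the difference between the library sets. Alternatives were another pseudocount, filter, scaling, moderation, fold threshold and adjusted p, cell lines fitted alone, the like libraries alone or as a term, a replicate block and each library left out.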

Additional observations from a re-analysis of the deposited data

How the results depend on the processing

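For the members, under settings that kept all libraries of the fit, 241 alternative values moved by less than the spread between replicates and 2 by more. For the 216 values with 1 library left out, the shift cannot exceed that spread with 2 libraries a group. Those 216 therefore say nothing on stability. TYMS in HepG2 (0.45) was 0.35 under TPM scaling and 0.32 under quantile normalization. The sign changed in RRM1 in Huh7, DUT in HepG2 and UHRF1 in HepG2, each when 1 library was left out.

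For the counts of calls, 325 genes in HepG2 became 504 with a filter at 0.1 FPKM, and 283 in Huh7 became 124 with that line fitted alone. The 596 of the mean became 1245 with the library set as a term and 218 with a log2 difference of at least 1. Of the pathway genes, 11 in HepG2 became 7 under TPM scaling and 6 with the line fitted alone, and 16 in the mean became 29 with the set as a term and 9 with a log2 difference of at least 1. With adjusted p all 6 counts were 0. TPM scaling changed the share of calls that were higher in SR from 40.9% to 26.5% in HepG2, from 50.5% to 34.6% in Huh7 and from 48.3% to 30.6% in the mean. Leaving out 1 library at a time gave 58 to 1744 genes in HepG2, 153 to 816 in Huh7 and 190 to 1278 in the mean, and 2 to 19, 1 to 14 and 4 to 29 pathway genes.

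Same-numbered libraries deviated together at r = 0.125 in HepG2 and 0.796 in Huh7. With 2 pairs a line this does not pair them. A replicate block gave 328, 234 and 516 genes and 8, 3 and 15 pathway genes. Chosen after seeing the data, a replicate block within each cell line gave 1392, 669 and 1509 genes and 34, 16 and 44 pathway genes, replicate 1 alone 134 and 8 in the mean, and leaving out the cell line term 25 pathway genes. Depth is unknown, so low values have no counting error here.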

Other observations

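Genes of origin licensing and of mitosis were measured in the same fit. Of 13 genes of origin licensing and helicase assembly, 9 were called higher and 0 lower in the mean of both lines at the unadjusted limma thresholds. Of all genes tested, 1.9% were called higher and 2.03% lower there. These lists too were chosen with earlier results of these data known, so nothing is read from their counts against those shares. The median difference of the 13 was 1.28, against -0.05 over all genes. MCM3, a subunit of the replicative helicase, was 16.4 and 36.6 FPKM in HepG2 WT, 88.3 and 129 FPKM in HepG2 SR, 32.0 and 18.1 FPKM in Huh7 WT and 84.8 and 69.0 FPKM in Huh7 SR. Its 4 SR libraries lay above the 4 WT libraries, and the mean difference was 1.85 (SE 0.35, unadjusted p = 0.00117). CDC45, the helicase cofactor, differed by 1.77 (SE 0.45, unadjusted p = 0.00576). MCM3 and CDC45 fall outside the naming rule and had the largest mean differences of the 13, so their p-values are no independent test. Of 12 genes of G2 and M phase 4 were called higher, CCNA2, CCNB2, CENPF and KIF11, with a median of 1.12 over the list. Neither list held a gene with an adjusted p under 0.05. How the counts of these 2 lists change with single libraries left out is not given here.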
